A study of Lachancea waltii with 4 samples.

Results

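The 200 genes with the most AT-rich array probes were described, out of 5193 genes measured in the budding yeast Kluyveromyces waltii (now Lachancea waltii). Their probes held the lowest share of G and C bases. The share was read from each probe's sequence and averaged over the probes of a gene, and the genes were ranked by it. Genes on contigs with 12 or fewer genes were left out of the ranking, which left 5053 genes on 10 contigs. Genes with equal GC content were taken in the order of their names. Neither the RNA nor the genomic DNA signal entered this choice.

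The study measured messenger RNA abundance in several yeast species for comparison with their chromatin maps. For this species, cultures of strain NCYC 2644 in rich medium were harvested in mid-log phase, and each array received total RNA carrying the green dye Cy3 and genomic DNA from that strain carrying the red dye Cy5. The 4 arrays carried RNA samples 1 to 4 and formed a single group. The labels do not say whether these RNA samples came from separate cultures, although the methods of the study speak of biological replicates, so the spread between arrays may be partly technical. All 4 arrays lay on 1 slide.

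On a two-colour array of this kind each spot carries many copies of a short DNA strand that pairs with its labelled target. A-T pairs hold fewer hydrogen bonds than G-C pairs, so that a hybrid rich in A and T melts at a lower temperature, and array designers usually keep probes within a narrow GC range. Genomic DNA serves as a reference because single-copy genes all contribute equal amounts of DNA target, whatever their expression. The ratio of RNA to genomic DNA is therefore used as an expression level that can be compared between genes. The RNA came from whole cultures, so fewer cells that express a gene and less RNA per cell cannot be told apart.

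The level, the RNA signal and the genomic DNA signal were followed, each on a log2 scale with the median gene set to 0 on each array. The level is the log2 ratio of RNA (Cy3) over genomic DNA (Cy5), the RNA signal is log2 Cy3, and the genomic DNA signal is log2 Cy5. All values below are quantile-normalised between arrays unless they are given in scanner units. A gene was called above or below the median gene where its mean differed from 0 by more than 2-fold (limma's moderated test against that bound, Benjamini-Hochberg adjusted p under 0.05 over the 5192 genes tested).

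The probes of 55 bases had been held to a narrow range of composition. Of 10386 gene probes, 10140 (97.6%) had 20 to 24 G or C bases, and 5610 (54.0%) had exactly 24. Of the 400 probes of the AT-rich genes, 296 had 20 G or C bases, 99 had 21 and 5 had another number. The mean GC content of the AT-rich genes ran from 31.8% to 38.2%, with a median of 37.3%, against a median of 42.7% in all other genes. The AT-rich genes are therefore the lower edge of a range that is itself narrow. In 97 of them both probes together held 40 G or C bases, in a further 97 they held 41, in 5 they held 42 and in 1 they held 35. The limit of the choice fell among 159 genes with 42, of which 5 were taken by name order.

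The last genes inside this limit and the first outside it were close in GC content and far apart in level. Inside, Kwal_14.1140 had a level of 0.57 ± 0.093 (SD over 4 arrays, as for all values written with ±) and Kwal_14.1504 a level of 0.90 ± 0.040, neither called. Under loess Kwal_14.1140 had a level of 1.53 and was called above, and Kwal_14.1504 had one of 0.49. Outside, Kwal_14.1634 had a level of 3.37 ± 0.057 (0.93 under loess, not called) and Kwal_14.2008 a level of -0.57 ± 0.085. All 4 had the same GC content, and their levels spanned more than the interquartile range of the AT-rich genes.

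AT-rich genes gave less signal in both channels than all other genes, on each of the 4 arrays. In scanner units, before normalisation, the median RNA signal on arrays 1 to 4 was 878, 1245, 938 and 1110 in AT-rich genes, against 1233, 1772, 1367 and 1611 in all other genes. The median genomic DNA signal was 6154, 7568, 6899 and 7208 in AT-rich genes, against 8124, 9871, 9075 and 9383 in all other genes. Both medians were lower in AT-rich genes on every array, and no array stood apart in this. Negative control spots read 27.5 to 37 units for RNA and 7.5 to 15.5 units for genomic DNA, far below these medians.

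On the normalised scale the difference of medians in genomic DNA, AT-rich minus other genes, was -0.38, -0.37, -0.39 and -0.40 on arrays 1 to 4. The mean was -0.38 ± 0.013, or 0.767-fold. In RNA the differences were -0.54, -0.52, -0.55 and -0.56, with a mean of -0.54 ± 0.017, or 0.686-fold. These differences were many times the SD between arrays, but that SD covers the arrays only, because the same probes were read on each. No test was made of them, since genes are not replicates of a condition.

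The level, in which RNA is divided by genomic DNA, differed less by the reported normalisation, and the direction of its difference depended on that choice. The difference of medians was -0.13, -0.07, -0.14 and -0.09 on arrays 1 to 4, with a mean of -0.11 ± 0.036 (0.928-fold). It was 0.54 ± 0.018 with loess normalisation within each array and 0.35 ± 0.0078 with the log ratio of the scanner software, which makes the AT-rich genes higher. With the normexp background correction it was -0.01 ± 0.033, with arrays on both sides of 0. Loess and the scanner software's lowess step adjust the ratio according to the brightness of a spot. AT-rich genes were dimmer in both channels, and the part of this in the reversal was not tested. No direction of the level of AT-rich genes as a group is therefore stated here.

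**Figure D1:**
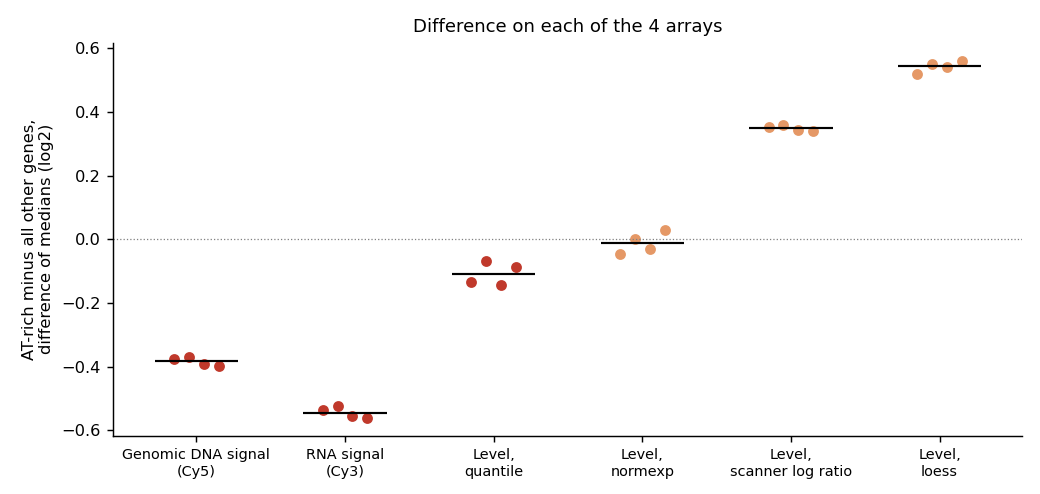
Difference of medians, AT-rich minus all other genes, on the log2 scale (vertical axis), with 1 point for each of the 4 arrays and a black line at their mean. Genomic DNA, RNA and the level as reported are in red, and the level under 3 other ways of making the ratio in orange. Genomic DNA lay at -0.38 and RNA at -0.54, whereas the level ran from -0.11 to 0.54 depending on the normalisation.

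Single genes showed the shift in genomic DNA as a shift of nearly the whole group. The mean genomic DNA signal was below that of the median gene in 174 of the 200 AT-rich genes (87%), against 48.5% of all other genes. The RNA signal was below it in 124 (62%), against 49.3% of all other genes, and the level in 107 (53.5%), against 49.8%. From the 5th to the 95th percentile AT-rich genes spanned -0.96 to 0.35 in genomic DNA, against -0.65 to 0.99 in all other genes. The interquartile range was 0.50 in AT-rich genes and 0.55 in all other genes, so that the band was displaced and hardly wider or narrower. The 2 groups overlapped broadly in every quantity.

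Few of these shifts reached the 2-fold bound in genomic DNA. It was called above the median gene in 3 AT-rich genes (1.5%), against 4.2% of all genes tested, and below it in 6 (3%), against 0.52% of all genes tested. Of 27 genes in all that were called below in genomic DNA, 6 (22.2%) were AT-rich, where AT-rich genes made up 3.96% of the genes ranked. Genomic DNA read well above background with every probe on every array in all 200 AT-rich genes.

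In RNA, 18 AT-rich genes (9%) were called above the median gene, against 23.6% of all genes tested, and 58 (29%) below it, against 19.5%. In the level, 25 (12.5%) were called above, against 23.1% of all genes tested, and 50 (25%) below, against 21%. By this normalisation, but not under loess or with the scanner software's ratio, calls above were rarer among AT-rich genes than among all genes. Under loess the split turned round, with 34 AT-rich genes above (17%, against 5.07% of all genes) and 8 below (4%, against 8.98%). With the log ratio of the scanner software 28 were above (14%, against 10.4%) and 21 below, where 13.5% of all genes were.

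**Figure D2:**
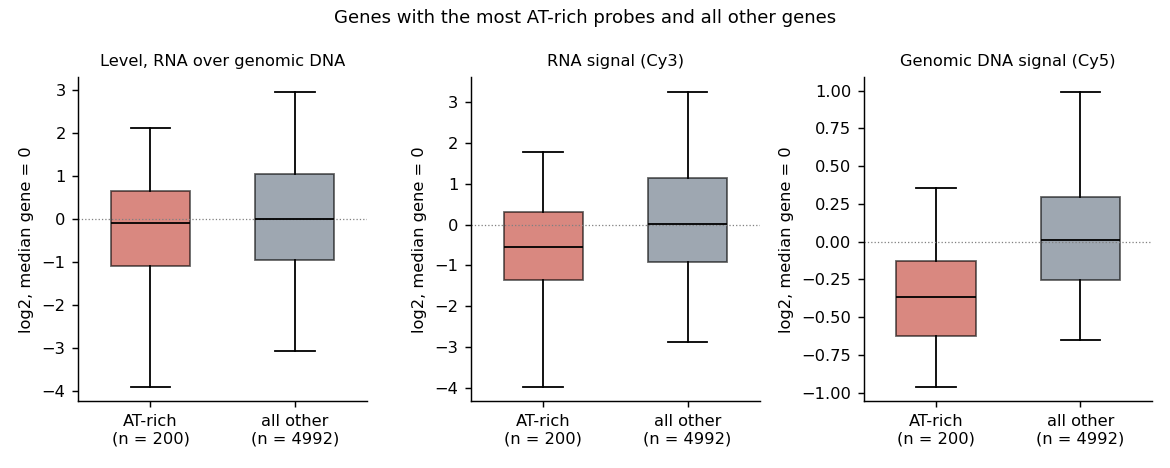
Gene means over 4 arrays (log2, median gene at 0) for 200 AT-rich genes (red) and 4992 other genes (grey), in the level, the RNA signal and the genomic DNA signal. Boxes span the quartiles, the black line is the median and whiskers reach the 5th and 95th percentiles. The genomic DNA box of the AT-rich genes, with a median of -0.36, lies almost wholly below 0.

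The place of AT-rich genes in the order of levels depended on the normalisation. When all genes were ordered by level and divided into 4 equal bins, AT-rich genes numbered 57, 50, 60 and 33 from the lowest bin to the highest. Under loess they numbered 19, 29, 47 and 105, and with the scanner software's ratio 37, 36, 58 and 69, and the highest bin then held more of them than any other. By the reported normalisation the highest level of an AT-rich gene was 3.67, and 130 other genes (2.60%) lay above it. The highest RNA signal was 3.76, and 179 other genes (3.59%) lay above that. In 4 equal bins of the RNA signal, AT-rich genes numbered 73, 52, 54 and 21. The difference in genomic DNA between AT-rich and other genes was -0.36, -0.38, -0.31 and -0.35 in these bins.

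Among the genes ranked, from 48 down to 40 G or C bases, the genomic DNA signal was lower at lower GC content almost step by step. Its median was -0.36 ± 0.022 in the 97 AT-rich genes with 40 G or C bases over both probes and -0.38 ± 0.0055 in the 97 with 41. Among genes that were not chosen it was -0.24 with 42 bases, -0.21 with 43, -0.16 with 44, -0.11 with 45, -0.02 with 46, 0.04 with 47 and 0.12 with 48. The 140 genes on contigs with 12 or fewer genes, left out of these classes, lay at 1.65 with a mean GC content of 42.6%. The AT-rich classes with 40 and 41 did not differ beyond the SD between arrays.

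The RNA signal and the level did not follow GC content in this way at the AT-rich end. The median RNA signal was -0.73 ± 0.10 with 40 bases and -0.33 ± 0.035 with 41, and it then stayed between -0.35 and -0.31 up to 44. It was 0.25 with 48 bases. The median level was -0.34 ± 0.051 with 40 bases and 0.02 ± 0.037 with 41, against -0.18 with 42, -0.24 with 43 and 0.16 with 48. By this normalisation the medians of the classes with 40 and 41 bases thus differed by more than the SD between arrays. That SD does not cover the spread between genes, whose levels had an interquartile range of 1.75 over the AT-rich genes. Whether the classes differ beyond that spread was not tested. The medians with 40 bases were low in RNA and level, and the median level with 41 was like that of the median gene. Of the genes with 40 bases 9.28% were called above in level and 32.0% below, and of those with 41 bases 15.5% were called above and 17.5% below. Under loess the median level was 0.45 ± 0.058 with 40 bases and 0.54 ± 0.010 with 41, and with the scanner software's ratio 0.25 ± 0.029 and 0.38 ± 0.018, which makes both classes higher than the median gene and brings them closer together.

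**Figure D3:**
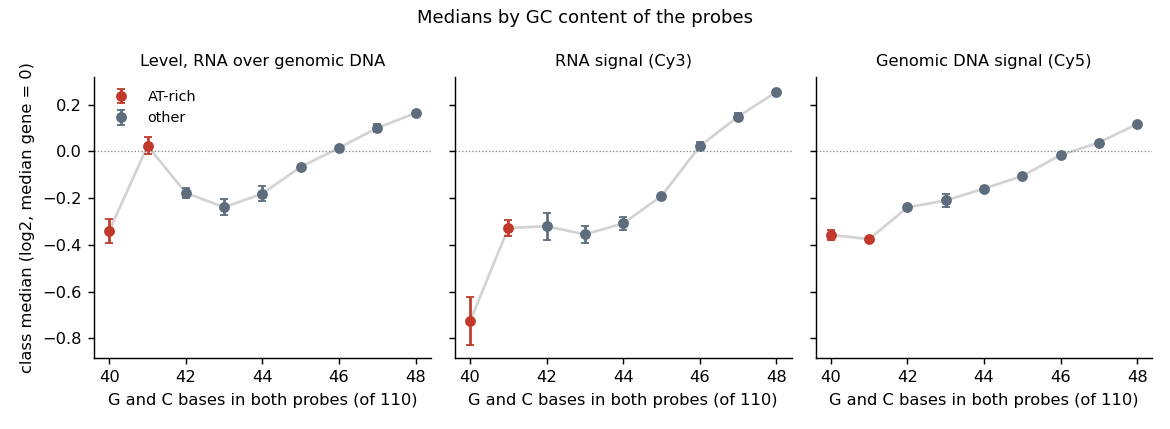
Median over genes (log2, median gene at 0) against the number of G and C bases in both probes of a gene, for the level, the RNA signal and the genomic DNA signal. Red points are the AT-rich genes with 40 and 41 bases, grey points the other genes with 42 to 48, and bars are SDs over 4 arrays. Genomic DNA climbs from -0.36 at 40 to 0.12 at 48, whereas the level by this normalisation has no such slope below 44.

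Each gene carried 2 probes, and where these differed in GC content they read the same transcript and the same gene copy with unlike composition. Among AT-rich genes 97 had 2 usable probes of unequal GC content, mostly 1 base apart. The AT-richer probe differed from its partner by a median of -0.12 ± 0.013 in genomic DNA and -0.11 ± 0.044 in RNA, and the level differed by -0.02 ± 0.023, less than its SD between arrays. It read lower in genomic DNA in 59 of the 97 genes (60.8%) and in RNA in 57 (58.8%). These SDs cover the arrays only, and single genes spread far more widely. Their quartiles were -0.42 and 0.20 in genomic DNA, -0.54 and 0.21 in RNA, and -0.25 and 0.23 in level. Restricted to 67 genes whose probe sequences did not overlap, the medians were -0.09 ± 0.029 in genomic DNA, -0.10 ± 0.058 in RNA and -0.06 ± 0.020 in level.

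Among AT-rich genes 97 had probes 1 base apart, 4 had probes 2 bases apart and 1, Kwal_23.4811, had probes 5 bases apart, so a wider gap was compared in other genes. In 407 other genes one probe had 20 G or C bases and the other 24, with separate sequences. The probe with 20, the count most AT-rich probes had, differed from the probe with 24 by a median of -0.37 ± 0.014 in genomic DNA, and it was the lower one in 323 of the 407 genes (79.4%). In RNA it differed by -0.26 ± 0.020 and was lower in 276 genes (67.8%). Its level was higher by 0.08 ± 0.027, and lower in 175 genes (43.0%). This comparison was added after the data were seen.

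Between genes the same step in composition was larger in RNA. The 97 AT-rich genes with 20 bases in each probe were set against 1676 other genes with 24 in each. Genomic DNA differed by -0.47 ± 0.019, RNA by -0.94 ± 0.11 and the level by -0.51 ± 0.059. For genomic DNA the difference between genes was 0.11 larger than that within genes, and for RNA 0.68 larger. The level differed by -0.51 between genes and by 0.08 within genes by the reported normalisation. Under loess these differences were 0.56 ± 0.062 and 0.54 ± 0.024, and with the scanner software's ratio 0.29 ± 0.031 and 0.44 ± 0.018, so both were then positive. Genes, unlike the probes of one gene, also differ in their transcripts, and these were not measured apart from the probes.

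**Figure D4:**
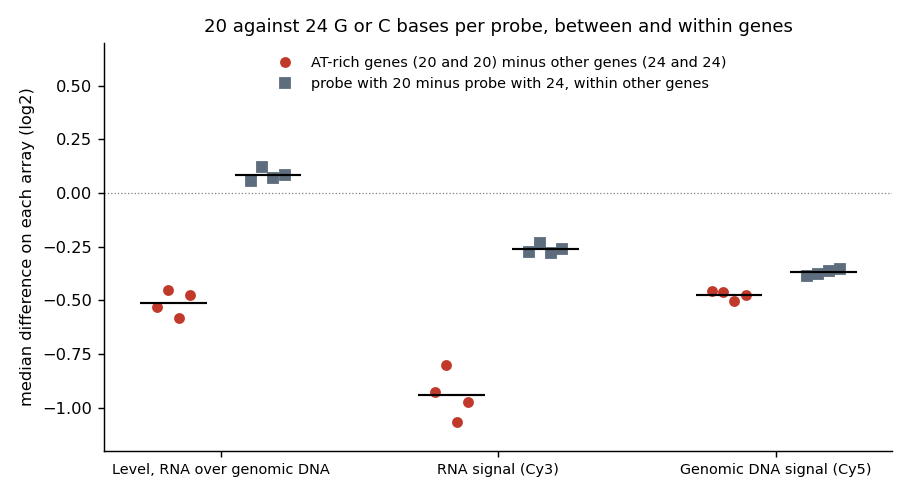
Median difference in the level, the RNA signal and the genomic DNA signal (log2, vertical axis) on each of 4 arrays, for probes with 20 against 24 G or C bases. Red circles compare 97 AT-rich genes with 1676 other genes, grey squares compare the 2 probes of 407 other genes, and black lines are means. In genomic DNA both comparisons lie near -0.4 to -0.5, and in RNA the difference between genes reaches -0.94 where that within genes is -0.26.

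The levels of single AT-rich genes ran from -4.89 to 3.67, against -6.34 to 6.24 in all other genes. The names given here are the identifiers of the files, which come with no gene name or function. The 5 highest levels among those whose 2 probes never lay on opposite sides of the median gene belonged to Kwal_27.10402, Kwal_23.4002, Kwal_23.5953, Kwal_26.9270 and Kwal_23.5161. Kwal_27.10402 had levels of 3.31, 3.45, 3.39 and 3.41 on arrays 1 to 4 (3.39 ± 0.061, limma adjusted p = 5.38e-10). It was the brightest AT-rich gene in RNA, at 3.76, and its genomic DNA signal of 0.37 was above that of the median gene. Under loess its level was 0.29 and no longer called, and with the scanner software's ratio it was 1.23. The levels of all genes were less spread under both. Their interquartile range was 1.99 by the reported normalisation, 0.99 under loess and 1.24 with the scanner software's ratio. The 2-fold bound stayed the same, so a call lost in this way is not particular to this gene or to the others named here.

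Kwal_23.4002 had levels of 3.28, 3.33, 3.12 and 3.35 (3.27 ± 0.10, limma adjusted p = 1.59e-09) with a genomic DNA signal of -0.50. Kwal_23.5953 averaged 2.96 ± 0.16 and Kwal_23.5161 averaged 2.43 ± 0.21. Kwal_26.9270 was one of the 2 least reproducible of the AT-rich genes well above background, with levels of 3.26, 3.04, 2.25 and 2.48 (2.76 ± 0.47). Its arrays 1 and 2 were high and arrays 3 and 4 low, yet all 4 lay far above the median gene. Under loess Kwal_23.4002, Kwal_23.5953 and Kwal_26.9270 had levels of 1.53, 1.56 and 1.55 and were still called, and Kwal_23.5161 had a level of 0.62 and was not. With the scanner software's ratio these 4 genes had levels of 2.09, 1.95, 1.85 and 1.17, all called.

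The highest level of any AT-rich gene was that of Kwal_34.16074, picked out after its values were seen. It had levels of 3.51, 3.83, 3.78 and 3.55 (3.67 ± 0.16) and rested on 1 probe, because the spot of the other was marked as an outlier.

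The 5 lowest levels among AT-rich genes whose RNA was well above background on every array belonged to Kwal_26.9238, Kwal_23.3667, Kwal_26.6651, Kwal_55.19547 and Kwal_23.6269. Kwal_26.9238 had levels of -4.11, -3.99, -4.01 and -4.14 (-4.06 ± 0.075, limma adjusted p = 1.98e-10), with a genomic DNA signal of 0.33, so its low level came with genomic DNA above the median gene. Under loess its level was -1.27 and with the scanner software's ratio -2.34, both called below. Its 2 probes read 79 to 143 and 85 to 170 units of RNA, but they overlapped by 54 bases and so were nearly a single measurement. Kwal_23.3667 averaged -3.59 ± 0.074, Kwal_26.6651 -3.54 ± 0.10 and Kwal_23.6269 -3.33 ± 0.039.

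Kwal_55.19547 was the other gene with a wide spread, with levels of -4.07, -2.94, -3.81 and -3.11 (-3.49 ± 0.54). Arrays 1 and 3 were low and arrays 2 and 4 higher, all far below the median gene. Its genomic DNA signal was steady, at 0.60 ± 0.011. Under loess its level was -1.80 and with the scanner software's ratio -2.34, both called below. Under loess Kwal_23.3667 (-0.85), Kwal_26.6651 (0.11) and Kwal_23.6269 (-0.07) were not called, and Kwal_26.6651 changed sign. With the scanner software's ratio their levels were -1.88, -1.17 and -1.27, all called below.

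The gene with the most AT-rich probes of all was Kwal_23.4811, with 15 and 20 G or C bases. Its levels were -1.45, -2.81, -1.25 and -2.05 on arrays 1 to 4 (-1.89 ± 0.70, limma adjusted p = 0.00558). They were all below the median gene but widely scattered, with arrays 1 and 3 closer to it than arrays 2 and 4. The genomic DNA signal of Kwal_23.4811 was among the lowest, at -1.44 ± 0.026, and did not scatter. The probe with 15 bases read 32.5 to 71 units of RNA, near the negative control spots on some arrays, and the probe with 20 read 293 to 579. In genomic DNA these probes were at -2.07 and -0.85, and in level at -2.95 and -0.80. Under loess the level of the gene was 2.06 and called above, and with the scanner software's ratio it was 0.58 and not called, so the direction of its level depended on the normalisation. Using only probes well above background it was -0.83 and not called.

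The next 4 genes in order of GC content all had 20 G or C bases in each probe. Kwal_0.96 had a level of 1.16 ± 0.24 (limma adjusted p = 0.107, not called), with arrays 1 and 3 at 0.95 and 0.96 and arrays 2 and 4 at 1.35 and 1.39. It was called above under loess (1.54), with the scanner software's ratio (1.44) and from its first probe alone (1.38). Kwal_14.1094 had a level of 0.52 ± 0.16, Kwal_14.1383 of 0.34 ± 0.042 and Kwal_14.1542 of -0.34 ± 0.096, none of them called. All 4 had genomic DNA below the median gene, between -0.87 and -0.07.

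After Kwal_23.4811, the widest GC gaps between probes, of 20 against 22 bases, included Kwal_0.335 and Kwal_0.370, which come first by name. The AT-richer probe of Kwal_0.335 had a genomic DNA signal of -0.13 and its partner -0.05. In Kwal_0.370 the values were -0.54 and -0.12, and the levels were -2.87 and -2.32. The gene's level was -2.60 ± 0.22 and called below, but 0.02 under loess and -0.78 with the scanner software's ratio, both not called.

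The 6 AT-rich genes called below in genomic DNA were Kwal_47.18672, Kwal_27.9923, Kwal_47.19102, Kwal_23.4811, Kwal_23.5395 and Kwal_33.12946, the last 2 named after their values were seen. Kwal_47.18672 had the lowest signal, at -2.91 ± 0.26, or 7.53-fold below the median gene (limma adjusted p = 4.57e-12). Its RNA signal was low too, at -2.28, and its level of 0.62 ± 0.18 was not called. Its probes read 942 to 1454 and 1105 to 1394 units of genomic DNA. Under loess the level was 5.13 and with the scanner software's ratio 3.93, both called.

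Kwal_27.9923 had a genomic DNA signal of -1.51 ± 0.19 and Kwal_47.19102 one of -1.45 ± 0.067. Their levels of -1.29 ± 0.095 and -2.70 ± 0.082 were called below by the reported normalisation. Under loess both were called above, at 2.26 and 2.02, so the direction of these levels is not settled. Kwal_23.5395 had a genomic DNA signal of -1.25 ± 0.063 and Kwal_33.12946 one of -1.16 ± 0.045. In Kwal_47.18672, Kwal_27.9923 and Kwal_47.19102 the 2 probes overlapped by 54 bases and so were nearly a single measurement. The same held for Kwal_23.3667, Kwal_26.9270 and Kwal_14.1094, described above.

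Genomic DNA was called above in Kwal_47.17022 (2.87 ± 0.27, 7.33-fold), Kwal_55.22263 (2.73 ± 0.24, 6.65-fold) and Kwal_47.19346 (1.45 ± 0.17, 2.73-fold). Kwal_47.17022 and Kwal_55.22263 carried the same 2 probe sequences, so that they are 1 pair of sequences spotted under 2 names. The 2 sequences overlapped by 54 bases. Their RNA signals of 0.20 and 0.12 were close to the median gene and their levels of -2.72 ± 0.32 and -2.61 ± 0.33 were called below, as they were under loess at -5.04 and -4.78. Kwal_47.19346 shared no probe, and its level of -1.25 ± 0.30 was just past the threshold (limma adjusted p = 0.0492). Without array 1, 2 or 4 it was not called (limma adjusted p = 0.20, 0.13 and 0.18), whereas under loess it was -2.50 and called.

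**Figure D5:**
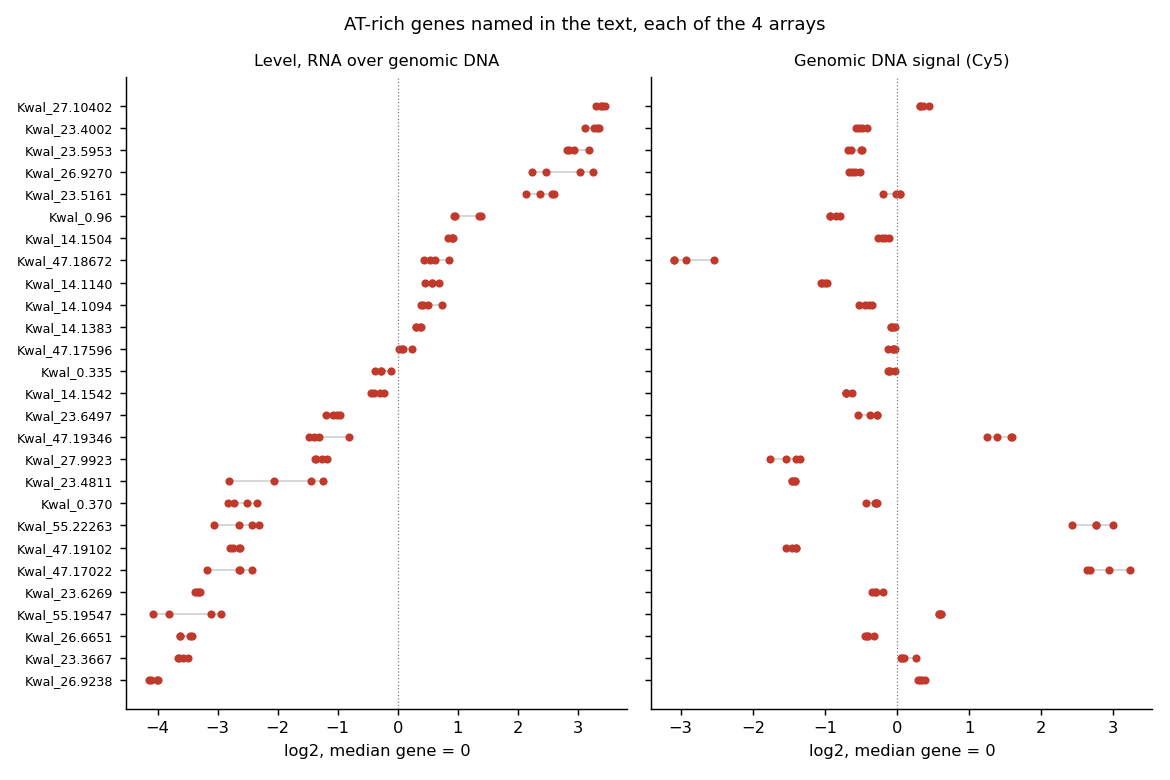
Level (left) and genomic DNA signal (right) on each of 4 arrays, log2 with the median gene at 0, for the 27 AT-rich genes named by rule, ordered by mean level. Points are arrays and grey lines join the lowest and highest. Most genes lie within 1 of 0 in genomic DNA while their levels run from -4.06 to 3.39, and Kwal_47.18672, Kwal_47.17022 and Kwal_55.22263 stand apart in genomic DNA.

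The 2 probes of a gene usually gave like levels. The median gap between separate probes was 0.311 in AT-rich genes and 0.309 in all other genes. Over all genes with 2 usable probes, overlapping pairs included, it was 0.262 in AT-rich genes and 0.231 in all other genes. In that wider set the gap exceeded 2-fold in 10 AT-rich genes (5.26%), against 3.79% of the other genes. The widest gap well above background was in Kwal_47.17596, whose probes, each with 20 G or C bases, had levels of 2.26 ± 0.064 and -2.03 ± 0.18. Its RNA read 4266 to 6755 units with one and 358 to 488 with the other, so its mean level of 0.11 stood for neither. Kwal_23.6497 had levels of -0.03 ± 0.15 and -2.08 ± 0.093 with probes of 20 and 21 bases.

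Replicate spread in AT-rich genes was like that of other genes. The median SD of the level between arrays was 0.103 in AT-rich genes and 0.0993 in all other genes, and correlations between arrays over all genes were 0.991 to 0.996. RNA failed to stand well above background with every probe on every array in 14 AT-rich genes (7.0%), against 120 other genes (2.40%). All 14 were called below by the reported normalisation, with levels from -4.89 to -1.89. Their median level was -4.00, and that of the 120 other genes with such RNA was -4.12. The level is made from the RNA signal, so low levels by this normalisation follow from picking genes with dim RNA. Under loess Kwal_23.4811 and Kwal_47.19102, which are among the 14, were called above, at 2.06 and 2.02. No AT-rich gene lacked RNA above background on all arrays. This was also rare elsewhere, with 9 of the 4993 other genes, so the groups cannot be told apart by it.

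The base counts followed from the choice of genes. The AT-rich probes averaged 18.9 A, 15.9 T, 9.6 C and 10.6 G bases, against 17.4 A, 14.3 T, 11.0 C and 12.3 G in the probes of all other genes. A made up 54.3% of A and T in AT-rich genes and 54.9% in all other genes. A run of 6 A or 6 T bases, the longest in any probe, occurred in 23 AT-rich genes (11.5%), against 386 other genes (7.73%). Probes overlapped by 50 or more bases in 35 AT-rich genes (17.5%), against 12.6% of all other genes, and they were separate in 133 (66.5%), against 66.3%. A probe sequence was shared with another gene in 4 AT-rich genes (2.0%), against 1.48%. These 4 formed 2 pairs, Kwal_47.17022 with Kwal_55.22263 and Kwal_23.4610 with Kwal_47.19304, Kwal_23.4610 and Kwal_47.19304 being named after their values were seen.

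AT-rich genes were spread over the genome. They made up 2.93% to 6.02% of the genes on each of the 10 contigs, and the genomic DNA signal of AT-rich genes was below that of the other genes on all 10. RNA was lower on 7 of the 10 and the level on 6. Only 5 pairs were direct neighbours by identifier. Among the first and last 10 identifiers of a contig lay 13 AT-rich genes (6.5%), against 3.85% of the other genes ranked. Of these 13, 9 were called below in level and 1 above by the reported normalisation, with a median level of -2.18. The other genes at contig ends also had low levels by it, with a median of -1.35 and 55.6% called below. The 187 AT-rich genes away from the ends had a median level of -0.03 by the same normalisation, with 41 called below and 24 above. Of all genes tested, wherever they lay, 21% were called below and 23.1% above. By the reported normalisation, position at a contig end thus went with a low level in AT-rich and other genes alike. Of the end genes named by rule, Kwal_55.19547 (-1.80), Kwal_55.22263 (-4.78) and Kwal_47.19346 (-2.50) were called below under loess. Kwal_26.6651 (0.11) and Kwal_0.370 (0.02) were not. In Kwal_55.22263 and Kwal_47.19346 genomic DNA was high (2.73 and 1.45) and RNA near the median gene (0.12 and 0.21), although in Kwal_47.19346 the probes disagreed in both. The part of position in the level of the AT-rich genes was not tested.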

How the data were processed

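Total RNA (Cy3) and genomic DNA (Cy5) were read on 4 two-colour Agilent arrays with 2 probes for each gene. The deposited scanner files hold median spot and local background intensity per channel, extracted with Agilent Feature Extraction 10.1.1.1 per the file headers, another version than the methods of the study name. The deposited log10 ratio of red over green, which the authors' software dye-normalised, was turned in sign and used as an alternative. Deposited flags mark outliers and spots above background. The authors' table of gene values was not used, because its row numbers match no probe column.

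Following the methods of the study, background was subtracted, log2 taken, the median over probes formed and arrays quantile-normalised. The median gene was then set to 0. Probes marked as outliers on any array (254) or without positive signal (1) were left out, which left 10131 probes and 390 of 400 for the AT-rich genes. No gene spot was saturated. Calls came from limma 3.58.1 in R 4.3.3 (treat, 2-fold bound). They were tried on simulated data, in which changed and unchanged genes lay apart on either side of the bound and noise was independent between arrays. That trial therefore does not cover genes near the bound. The number of arrays limits the precision.

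Named genes were, among AT-rich genes, the 5 lowest in GC content, the 5 highest and 5 lowest levels called with both probes on one side, the 3 highest and 3 lowest in genomic DNA, the 3 widest GC gaps, the 2 largest SDs, the 2 widest probe gaps, and the 2 genes on each side of the limit. The genes, lists and tests were chosen with earlier results of these data known. Other backgrounds, normalisations, filters, probe and gene choices and left-out arrays were tried.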

Additional observations from a re-analysis of the deposited data

Results flagged for a closer look

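Of 73 measures compared between the 4 arrays, 2 had an array far from the other 3. Chance alone would mark about 1 in 20. The genomic DNA signal of Kwal_14.1542 was -0.63 on array 1, against -0.71 to -0.70 on the others. The level of Kwal_14.1504 was 0.84 on array 2, against 0.91 to 0.93 on the others. Both gaps were under 0.1 on the log2 scale and changed no call.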

How the results depend on the processing

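Loess, the scanner software's ratio and normexp were applied to the level alone. In genomic DNA and RNA the difference of medians kept its sign under all 14 alternatives each, and leaving out 1 array at a time gave -0.39 to -0.38 in genomic DNA, -0.55 to -0.54 in RNA and -0.12 to -0.09 in level. Loess and the scanner software's log ratio reversed the level difference, to 0.54 and 0.35, and the within-gene level difference, to 0.12 and 0.061, and reduced the 50 genes called below to 8 and 21. They also turned the difference between AT-rich genes with 20 and other genes with 24 bases per probe, to 0.56 and 0.29 in level (added later). The normexp correction gave a level difference of -0.011, and only probes well above background gave -0.053 in level and -0.50 in RNA. The lowest-GC probe alone gave -0.59 in RNA and -0.36 in genomic DNA. The 100 most AT-rich genes gave -0.36 in level, -0.72 in RNA and -0.37 in genomic DNA, the 400 most AT-rich gave -0.17, -0.47 and -0.32, and all genes at or below the limit, added after the data were seen, gave -0.49 in RNA and -0.34 in genomic DNA. Separate probe sequences moved the within-gene differences to -0.064 in level and -0.089 in genomic DNA. The 407 other genes with 20 and 24 bases, also added later, gave 0.083 in level, -0.26 in RNA and -0.37 in genomic DNA. Leaving out 1 array at a time, the within-gene differences ran from -0.03 to -0.01 in level, -0.13 to -0.10 in RNA and -0.13 to -0.12 in genomic DNA. Without genes sharing a probe 1 gene rather than 3 was called above in genomic DNA. Tested against 0, 85 genes were above and 100 below in level, and with a 4-fold bound 9 and 31. The shares of all genes at these bounds were not worked out, so these counts cannot be set against the whole array. Leaving out 1 array changed the counts at the 2-fold bound little, with 25 above and 48 to 50 below in level, 18 above and 57 to 58 below in RNA, and 3 above and 6 below in genomic DNA. The p-values above take the 4 arrays as independent. In Kwal_23.4811, Kwal_0.96 and Kwal_55.19547 the levels on arrays 1 and 3 lay apart from those on arrays 2 and 4. In Kwal_26.9270 arrays 1 and 2 lay apart from arrays 3 and 4. With arrays 1 and 3 averaged and arrays 2 and 4 averaged, 24 genes were above and 49 below in level, the shares of all genes again not being worked out. The limma adjusted p was then 1.23e-05 for Kwal_27.10402 and 0.0362 for Kwal_23.4811. Of 319 alternatives for 29 named genes, 287 left direction and call as they were and 13 reversed the sign. Under loess Kwal_23.4811 was 2.06, Kwal_14.1542 0.80, Kwal_26.6651 0.11, Kwal_27.9923 2.26, Kwal_47.19102 2.02, Kwal_0.335 0.034, Kwal_0.370 0.025, Kwal_23.6497 0.15 and Kwal_14.2008 0.083. With the scanner ratio Kwal_23.4811 was 0.58, Kwal_14.1542 0.47, Kwal_27.9923 1.17 and Kwal_47.19102 0.45. The cause was not tested. The probes of every AT-rich gene lay less than 10 percentage points apart in GC content, so a comparison at that gap gave no value. No paired analysis was possible because there was 1 group. Dim RNA limits the lowest levels.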
